A study of Caenorhabditis elegans with 12 samples.

Results

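In many sites occupied by MRG-1 in both strains, the peaks of glp-4(bn2) animals ran on past the N2 peaks or filled the space between them. Such a glp-4-only stretch was defined as a run of at least 150 bp on chromosome II, III, IV, V or X. It was covered by peaks of at least 2 of the 3 glp-4(bn2) samples and by none of the 3 N2 samples. It also had to lie inside a site, formed by joining peaks of all 6 samples that overlap by at least 1 bp, in which at least 1 N2 sample had a peak elsewhere. This rule gave 907 stretches of the 1575 runs with the same coverage on these chromosomes, and the other 668 lay in sites without any N2 peak. Because the stretches were chosen by measured peak coverage in both strains, their number, coverage and fold enrichment are given as a description and carry no test. Chromosome I was not analysed here.

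The 6 samples were whole worms at the L4 stage, 3 replicates of the wild-type Bristol strain N2 and 3 of SS104, which carries glp-4(bn2). In both strains the L1 larvae were grown at 25°, chromatin was precipitated with an antibody against MRG-1, and an input was sequenced for each sample, which was not analysed here. The labels give 15° and the study's methods 20° for keeping the strains, and the strain list of the methods names the allele of SS104 as bn11. Nothing in the sources used here says whether the replicates of a strain came from separate cultures, so all spreads are those between these samples and may be technical.

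MRG-1 is the worm ortholog of human MRG15, a chromodomain protein associated with chromatin marked by H3K36me3, a modification found over transcribed genes. In the C. elegans germline it is known for its part in keeping X-linked genes silent, and the X chromosome is largely silent in immature germ cells. The gene glp-4 encodes a valyl-tRNA synthetase, and glp-4(bn2) animals raised at the restrictive temperature have almost no germ cells, while their somatic tissues remain. Because the samples are whole animals, fewer cells of a type and less MRG-1 per cell cannot be told apart in any value below.

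A site could hold a glp-4-only stretch only if at least 2 glp-4(bn2) samples and at least 1 N2 sample had a peak in it. There were 3410 such candidate sites, and 593 of them (17.4%) held a stretch. The mirrored rule, with the strains exchanged, found 1725 N2-only stretches in 1135 (32.8%) of its 3458 candidate sites. The glp-4-only stretches summed to 385 kb and the N2-only stretches to 934 kb. The lists themselves were of similar size on these chromosomes, with 5388 to 5811 peaks per N2 sample and 5587 to 5844 per glp-4(bn2) sample. They covered 11.6 to 13.1 Mb in N2 and 10.4 to 12.0 Mb in glp-4(bn2). Replicate 2 covered the most in each strain, and its part in the values below is given where a sample was left out.

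The read totals behind the lists are not given, so the depth of each sample is unknown. A peak list says where the signal passed the calling threshold and holds no value outside the peaks. A base without an N2 peak is therefore one where no N2 peak was called, and signal below the threshold is not seen.

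The X chromosome held 440 of the 907 glp-4-only stretches, or 48.5% (95% Wilson interval 45.3% to 51.8%), and 51.0% of their bases. By comparison it held 12.1% of the candidate sites and 8.86% of the bases there that at least 2 glp-4(bn2) lists share. On X, 263 of 411 candidate sites (64.0%) held a stretch, with an interval of 59.2% to 68.5%. On the 4 autosomes together 330 of 2999 did (11.0%, interval 9.93% to 12.2%). These intervals cover counting error only, and neighbouring sites of the same samples are not independent.

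Among the autosomes the share of candidate sites with a stretch was 12.2% on chromosome II, 7.41% on III, 12.0% on IV and 13.8% on V. The 467 autosomal stretches divided into 120, 88, 129 and 130 in that order. Chromosome III, which had the most candidate sites at 918, had the fewest stretches and the lowest share. Of the bases that at least 2 glp-4(bn2) lists share in candidate sites, 20.8% lay in a stretch on X. The same share was 1.68% on II, 1.14% on III, 2.34% on IV and 3.21% on V.

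The mirrored N2-only stretches were distributed the other way. Of 351 X candidate sites 7 (1.99%) held an N2-only stretch, and of 3107 autosomal candidate sites 1128 did (36.3%). The 9 N2-only stretches on X were 0.522% of the 1725. The share was 35.0%, 35.8%, 38.0% and 36.5% of candidate sites on chromosomes II, III, IV and V, a narrow range compared with the difference from X.

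**Figure D1:**
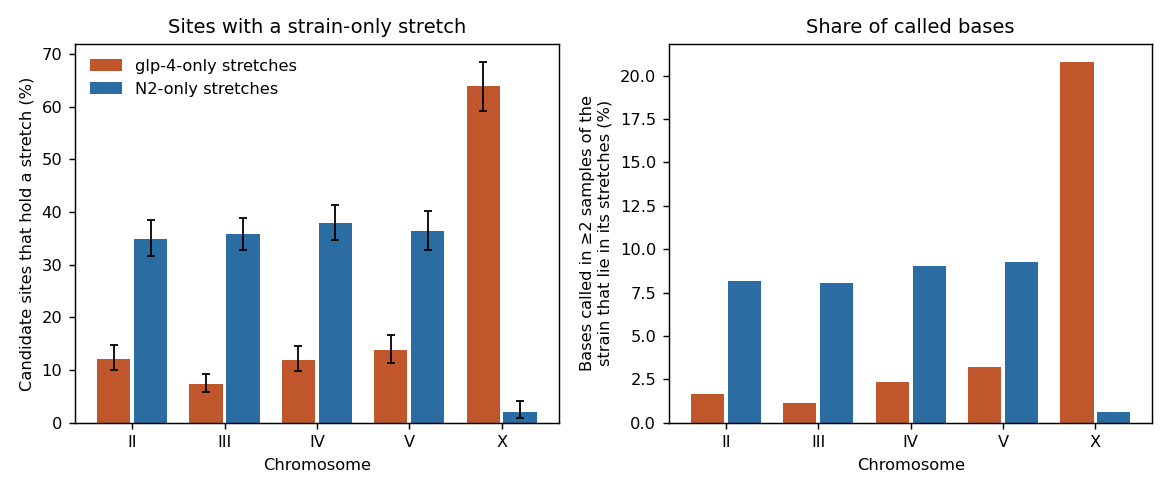
Share of candidate sites that hold a strain-only stretch of at least 150 bp (left, percent, bars with 95% Wilson intervals) and share of the bases called in at least 2 samples of a strain that lie in its stretches (right, percent), for chromosomes II to V and X. On X the glp-4-only bars stand at 64.0% and 20.8% and the N2-only bars at 1.99% and 0.608%, while on each autosome the N2-only bar is the higher one in both panels.

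To see how the samples of a strain vary, runs were also taken from 1 sample at a time. They were the runs of at least 150 bp covered by that sample and by no sample of the other strain, inside sites that hold peaks of both strains. The samples of a strain share the set of peaks that is taken away, so the strain labels enter each value and the samples cannot be exchanged between strains. The values are therefore a description, with no p-value. Of the bases in these runs, 46.9%, 45.2% and 52.8% lay on X in glp-4(bn2) replicates 1, 2 and 3. In N2 replicates 1, 2 and 3 the share was 0.538%, 0.220% and 0.616%. The strains did not overlap, with means of 48.3% ± 3.98 in glp-4(bn2) and 0.458% ± 0.210 in N2 (SD, n = 3 each). The difference was 47.8 percentage points, and 41.2 to 49.1 with any 1 sample left out. For scale, X held 8.86% of the bases that at least 2 glp-4(bn2) lists share in the candidate sites. It held 5.08% of those that at least 2 N2 lists share in the mirrored candidate sites.

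The position, length and site width of these runs are given in the same way. The median width of the sites that hold such runs was 2422, 2214 and 2326 bp in glp-4(bn2) and 4361, 3813 and 4702 bp in N2. Every N2 value lay above every glp-4(bn2) value, and the means differed by 1971 bp, at 2321 ± 104 and 4292 ± 448 bp (SD, n = 3 each). The median length of a run was 317, 312 and 319 bp in glp-4(bn2) and 367, 360 and 372 bp in N2. The runs of glp-4(bn2) were the shorter ones, at a mean of 316 ± 3.61 bp against 366 ± 6.03 bp. The share of runs at the outer edge of their site was 78.1%, 78.1% and 80.0% in glp-4(bn2) and 73.4%, 76.3% and 73.4% in N2. The means were 78.7% ± 1.06 and 74.3% ± 1.66, and this small difference of 4.39 percentage points depended on the samples used. Without N2 replicate 2 it was -4.44 points, with the N2 share the higher one, and with any other sample left out it was 2.41 to 11.2 points, the highest without glp-4(bn2) replicate 2.

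The length minimum of 150 bp bears on these differences. With no minimum the difference in median length was -12.0 bp in place of -50.3 bp, that in edge share 3.61 points, and that in site width -883 bp in place of -1971 bp. The X share differed by 44.9 points without the minimum. Nearly all runs of N2 were autosomal, but the order was the same among autosomal stretches called in at least 2 samples. There the glp-4-only stretches had a median length of 307 bp and the N2-only stretches of 367 bp, in sites with a median width of 2260.5 and 4541 bp. The edge shares there were 76.9% and 72.6%.

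**Figure D2:**
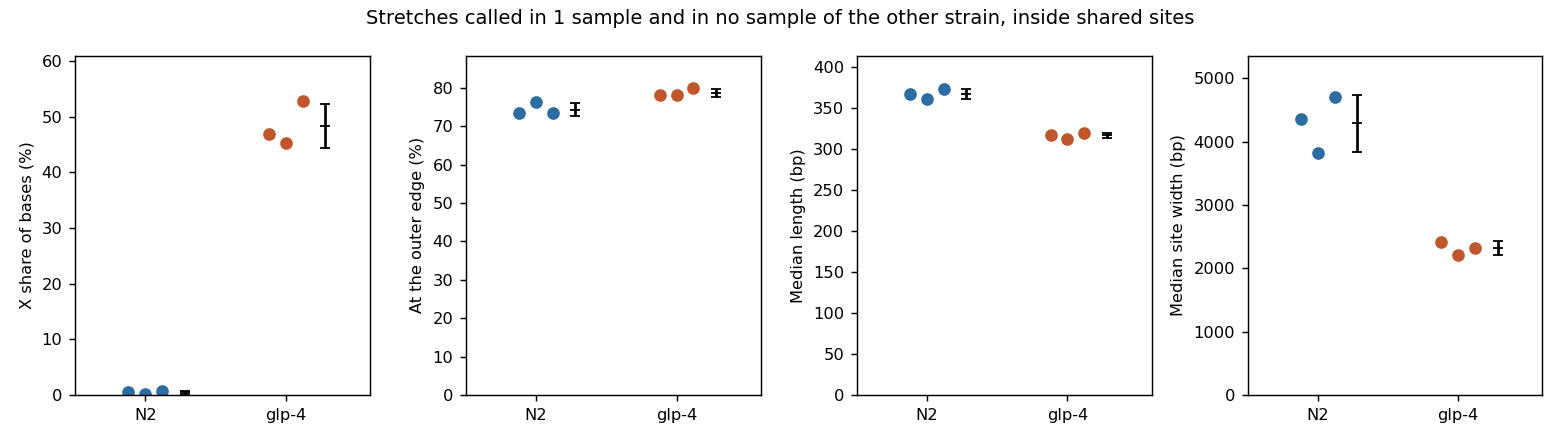
For each sample alone, the share of its strain-unique bases on X (percent), the share of its strain-unique runs at the outer edge (percent), their median length (bp) and the median width of their sites (bp). Points are samples in the order of replicates 1 to 3, the bars beside them are the mean and SD of 3 samples, and the strains do not overlap in any panel at this length minimum of 150 bp, with X shares of 45.2% to 52.8% in glp-4(bn2) and at most 0.616% in N2.

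Of the 907 glp-4-only stretches, 698 lay at an outer edge, with no N2 peak between them and one end of the site. That is 77.0% (95% Wilson interval 74.1% to 79.6%), and the other 209 lay in a gap between N2 peaks of the same site. The division was nearly the same on X, with 339 edge and 101 gap stretches, and on the autosomes, with 359 and 108. For the N2-only stretches the edge share was 72.6%.

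Most stretches were direct extensions of an N2 peak. In 818 of the 907 (90.2%) the first base beyond one end was covered by N2, and the nearest N2 base belonged to a single N2 sample in 903. That base is the end of the N2 peak that reaches nearest. It belongs to more samples only where peak ends coincide, and does not show how many N2 samples have a peak nearby. The glp-4(bn2) peaks that made up a stretch also reached into an N2 peak in at least 1 sample for 889 stretches (98.0%), and in every sample that covered the stretch for 794 (87.5%). For the N2-only stretches the same shares were 87.0% adjoining, and 99.2% and 84.6% reaching in. Sites are joined by overlap of peaks, so such contact is in part set by the rule. In 18 stretches, 13 on X and 5 on autosomes, no glp-4(bn2) peak touched an N2 peak, and all 18 lay at an edge. The 89 stretches that did not adjoin an N2 base were a median of 350 bp from the nearest one, and at most 2606 bp. Only 3 of the edge stretches ended with the site, and the median distance left was 78 bp. This follows from the rule, since the furthest single peak sets a site's end and a stretch needs at least 2 samples. Of the 1253 N2-only edge stretches 3 ended with the site, and the median distance left was 73 bp.

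The gaps between N2 peaks that held a stretch were mostly narrow. They ranged from 151 to 1717 bp with a median of 364 bp, counted once per stretch, and in 143 of the 209 the stretch filled the gap from end to end. A single glp-4(bn2) peak crossed the whole gap in all 3 samples for 63 stretches, in 2 samples for 74, in 1 sample for 62 and in no sample for 10. In 137 of the 209, then, a single peak in at least 2 glp-4(bn2) samples spanned what the N2 peaks left apart. They also lay more often in sites with peaks of all 3 N2 samples, 83.3% of them against 61.5% of all stretches, although a site with more N2 samples has more N2 peaks that can enclose a gap.

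The stretches were short compared with a peak. Their lengths ran from 150 to 2998 bp with a median of 307 bp and quartiles of 203.5 and 521 bp, while the median peak of a list on these chromosomes was 967 to 1153 bp wide. A stretch is mostly the part of a peak that N2 peaks leave uncovered, so its shortness follows in part from the rule. A few long stretches held much of the sequence. The 235 of at least 500 bp held 52.8% of the bases and the 62 of at least 1000 bp 21.8%. Length did not separate X from the autosomes at the centre, with medians of 307.5 and 307 bp. At the upper end, 38 of the 62 stretches of at least 1000 bp and 6 of the 8 of at least 2000 bp were on X. Edge stretches had a median of 318 bp and gap stretches of 286 bp, and 54 of the 62 longest were at an edge.

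**Figure D3:**
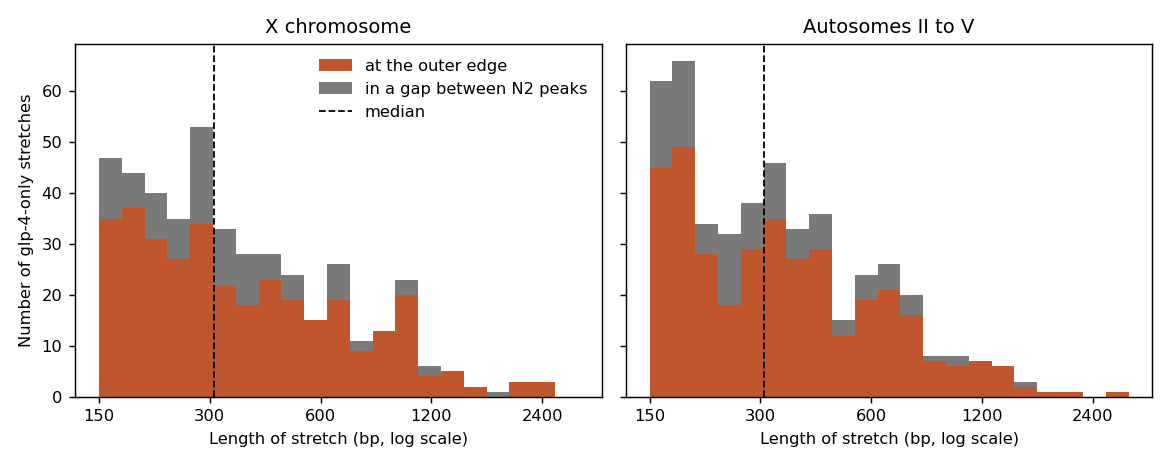
Number of glp-4-only stretches by length (bp, log axis) on X and on autosomes II to V, split into edge (orange) and gap (grey) stretches, with the median as a dashed line. The autosomal histogram is highest at the shortest lengths and that of X just below its median, the medians are 307.5 and 307 bp, and 54 of the 62 stretches of at least 1000 bp are edge stretches.

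The length minimum divided a continuous distribution. Just inside it, from 150 to 159 bp, were 53 stretches, 19 on X and 36 at an edge. Just outside, from 140 to 149 bp, were 51, with 20 on X and 39 at an edge. In all, 1328 shorter runs with the same coverage were left out, of which 31.5% were on X and 83.2% at an edge. The X share was 41.6% among stretches of 150 to 199 bp, 54.1% from 200 to 299 bp, 46.8% from 300 to 499 bp, 48.0% from 500 to 999 bp and 61.3% from 1000 bp. These shares did not rise steadily with length, and the last class holds 62 stretches.

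The 3 glp-4(bn2) samples did not contribute alike. Replicate 2 covered 94.4% of the stretch bases, replicate 1 83.3% and replicate 3 81.4%. Replicate 2 lacked any base in 18 stretches, replicate 1 in 58 and replicate 3 in 79. At least 150 bp were covered by all 3 samples in 496 stretches (54.7%), 250 on X and 246 on autosomes, and 59.1% of the bases were covered by all 3. The share of stretches with at least 150 bp in all 3 samples rose with length. It went from 24.2% of the stretches under 200 bp to 87.9% from 500 to 999 bp and 98.4% of those of at least 1000 bp. A longer stretch meets the fixed 150 bp with a smaller part of its length, so a rise is built into this measure. When glp-4(bn2) replicate 2 was left out and both remaining samples had to cover a base, 544 stretches were left. Without replicate 1 there were 677 and without replicate 3 there were 718, and the X share stayed between 46.7% and 51.6% in these settings.

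On the N2 side, replicate 2 weighed most. Without N2 replicate 2 the number of stretches was 1166, and their X share was 38.3%. Without N2 replicate 1 or 3 it was 1030 or 980, with X shares of 47.7% and 48.1%. The N2 replicate 2 list covered the most bases of the 3, and the part of its extent in these values was not tested beyond leaving it out.

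Because the stretches were chosen on all 6 samples, they were chosen again with 1 sample of each strain held out, and the coverage was then read in the 2 samples that had no part in the choice. There are 9 such choices, which share samples, so no p-value is given. Each choice gave 592 to 998 stretches, covered by both glp-4(bn2) samples kept and by neither N2 sample kept. The held-out glp-4(bn2) sample covered between 70.1% and 93.0% of their bases, with a median of 78.6%. The held-out N2 sample covered between 7.75% and 38.5%, with a median of 17.9%. The glp-4(bn2) sample covered more in 9 of 9 choices, by 61.2 ± 14.7 percentage points (SD over the 9 choices).

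On X alone the held-out glp-4(bn2) sample covered 75.7% to 92.8% and the held-out N2 sample 6.13% to 32.5%. On the autosomes the ranges were 60.8% to 93.2% and 9.57% to 45.1%, so that the closest pair was autosomal. That pair held out glp-4(bn2) replicate 3 and N2 replicate 2, with 60.8% against 45.1% of the bases of 628 stretches. The 3 choices that held out N2 replicate 2 gave the 3 highest N2 values on X and on the autosomes, and those that held out N2 replicate 3 the 3 lowest.

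**Figure D4:**
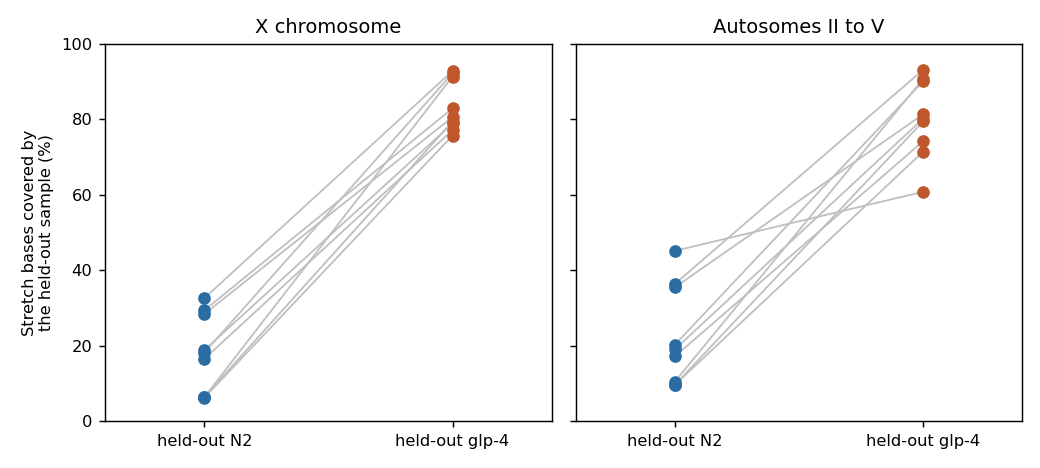
Percent of the stretch bases covered in the held-out N2 sample and the held-out glp-4(bn2) sample, for stretches chosen from the other 4 samples, on X and on autosomes II to V. Each line is 1 of the 9 choices, all lines rise toward glp-4(bn2), and the flattest is the autosomal pair at 45.1% and 60.8%.

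A site with N2 peaks in just 1 sample is shared in a weaker sense than one called in all 6. Of the 907 stretches, 191 (21.1%) lay in sites with a peak of 1 N2 sample, 158 (17.4%) in sites of 2 and 558 (61.5%) in sites of all 3. On X 67.5% of the stretches were in sites of all 3 N2 samples, and on the autosomes 55.9%. Counted by site, 65.4% of the X sites with a stretch had peaks of all 3 N2 samples, and 73.6% of the X candidate sites without one. On the autosomes these shares were 60.9% and 92.6%, further apart than on X. With a peak of all 3 N2 samples required, the X share of the 558 stretches was 53.2% and the edge share 68.8%. For the N2-only stretches 87.4% lay in sites with peaks of all 3 glp-4(bn2) samples.

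The 593 sites that hold a stretch had a median width of 2331 bp (quartiles 1561 and 3684 bp), and the widest spanned 24833 bp. On X they were wider than the 148 candidate sites without a stretch, at 2455 against 1968 bp. On the autosomes they were narrower, at 2260.5 against 2539 bp. The share of X candidate sites with a stretch was 44.7% (21 of 47) up to 1000 bp, 61.1% (77 of 126) from there to 2000 bp, 66.5% (115 of 173) to 4000 bp and 75.4% (46 of 61) to 8000 bp. All 4 wider sites on X also held one. On the autosomes the same shares were 4.38%, 16.5%, 15.2%, 8.49% and 7.71%, highest in the middle widths. In every width class the X share was thus the higher one. A wider site offers more bases for a stretch, and glp-4(bn2) peaks of the stretch itself add to its width.

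Of the 593 sites, 359 held 1 stretch, 174 held 2, 50 held 3 and 10 held at least 4. Stretches lay at both ends of 135 sites, 69 on X and 66 on autosomes. The stretches of a site took up a median of 21.8% of its width, 24.4% on X and 17.9% on autosomes, and at most 84.3%. In 82 sites, 43 on X and 39 on autosomes, they took up at least 50%.

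Within the X sites that hold a stretch, N2 peaks covered 48.8%, 48.4% and 39.5% of the summed width in replicates 1, 2 and 3. The glp-4(bn2) peaks covered 83.8%, 93.4% and 85.5%. In the autosomal sites with a stretch the N2 shares were 62.4%, 67.9% and 58.1% and the glp-4(bn2) shares 83.8%, 90.6% and 81.5%. The glp-4(bn2) peaks thus filled about as much of these sites on X as on the autosomes, and the N2 peaks less on X than on the autosomes in each replicate. In autosomal candidate sites without a stretch the order was the opposite one, with N2 at 87.7% to 96.0% and glp-4(bn2) at 73.6% to 84.0%. In X candidate sites without a stretch glp-4(bn2) covered 83.3% to 91.4% and N2 64.7% to 83.5%. These coverages follow in part from how the sites were chosen and were not tested.

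Some of these sites had no peak in a given N2 sample. Of the 263 X sites with a stretch, 230, 222 and 194 had a peak in N2 replicates 1, 2 and 3, and 260, 263 and 261 in the glp-4(bn2) replicates. Of the 148 X candidate sites without a stretch, 143, 117 and 134 had a peak in N2 replicates 1, 2 and 3. N2 peaks were thus missing more often in the sites with a stretch in replicates 1 and 3, and less often in replicate 2. The fold enrichment, the ratio of signal over background that MACS2 gave for a peak in the authors' calling, was compared by its rank within the same list, since the scaling of the lists to each other is not given. Where N2 had a peak in the X sites with a stretch, the strongest one stood at a median percentile of 37.0, 33.6 and 39.5 of its list. In X candidate sites without one it stood at 56.2, 43.4 and 56.2. The autosomes showed the same order, with 42.8, 38.3 and 46.0 against 71.5, 72.7 and 71.4. The glp-4(bn2) peaks of the X sites stood at 60.8, 61.0 and 59.2 with a stretch and 65.1, 64.5 and 63.8 without. N2 peaks in sites with a stretch ranked low in their lists, and glp-4(bn2) peaks ranked slightly lower than in other candidate sites. The rule chose these sites by bases that N2 peaks left uncovered, so the low rank of the N2 peaks may follow in part from that choice. It was not tested.

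The strongest peak of a sample over each stretch had a median fold of 2.31, 2.63 and 2.29 in glp-4(bn2) replicates 1, 2 and 3. The medians over all single peaks of the lists were 2.19, 2.33 and 2.21. These are unlike measures, since a broad peak can count for several stretches. A fold belongs to the whole peak, and its highest point was mostly outside the stretch. In 634 stretches no glp-4(bn2) sample had a summit, the position of highest signal of a peak. A summit of 1 sample lay in 165, of 2 samples in 84 and of all 3 in 24, 12 on X and 12 on autosomes. Summits of at least 2 samples lay in 11.9% of all stretches, in 14.8% of edge and 2.39% of gap stretches. The share grew with length, to 32.8% of those of at least 500 bp and 43.5% of those of at least 1000 bp. At these 2 lengths it was 33.1% and 34.2% on X, and 32.5% and 58.3% on the autosomes. For the N2-only stretches the share was 11.3% of all, and 22.2% and 26.0% at these lengths. A longer stretch has more bases on which a summit can lie, so a rise is in part built into this measure. Peaks with their summit in a stretch had lower median folds than the strongest peaks over all stretches, at 1.85, 2.02 and 1.76.

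The longest stretch on X that all 3 glp-4(bn2) samples shared over at least 150 bp ran from 1099964 to 1102384 (ce10), 2421 bp in a site of 5757 bp. The N2 samples had peaks in the left part of the site, with folds of 2.36 and 2.37 in replicates 1 and 3 and of 2.63 and 1.47 for the 2 peaks of replicate 2. In glp-4(bn2) replicate 3 a single peak of 5313 bp ran from the N2 peaks through the stretch, with a fold of 3.35. Replicate 1 had a separate peak of 2421 bp over it, with a fold of 1.96, and replicate 2 had 3 peaks there, with folds of 1.41, 1.65 and 2.09. The extent was thus shared while its division into peaks was not. The stretch took up 42.1% of the site and began 468 bp beyond the last N2 peak.

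The next longest on X lay from 8553024 to 8555417, with 2394 bp, and from 921152 to 923502, with 2351 bp. In the first, N2 replicates 1 and 2 had a peak of 719 and 735 bp and replicate 3 none, while glp-4(bn2) replicates 1, 2 and 3 had peaks of 2365, 3319 and 3474 bp that began near the start of the N2 peaks and ran on past them. In the second, the only N2 peak was one of 504 bp in replicate 2, with a fold of 1.84. There glp-4(bn2) replicates 2 and 3 each had a single peak of 3407 and 3368 bp, with folds of 2.97 and 3.12, and replicate 1 had 4 peaks over the same extent. The stretch took up 68.9% of this site, and without N2 replicate 2 it would not count as a shared site. The other long stretches on X, from 17467389 to 17469559 and from 14585841 to 14587897, also lay in sites with peaks of 1 and 2 N2 samples, with N2 peaks of 387 bp in the first and of 762 and 590 bp in the second.

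The longest autosomal stretch lay on chromosome IV from 12161159 to 12164156, with 2998 bp in a site of 5000 bp. Here the samples shared less. All 3 glp-4(bn2) samples together covered 992 bp of it, with peaks broken at different places. N2 replicates 1 and 2 had peaks of 331, 399 and 637 bp to the left of it, with folds between 1.48 and 1.55, and replicate 3 had none. The next were on chromosome IV from 6568889 to 6571099, with 2211 bp, and on V from 8793610 to 8795306, with 1697 bp. The latter site had peaks of all 3 N2 samples on its left side, and a second N2 peak of 543 bp in replicate 3 that ended where the stretch began. The glp-4(bn2) samples had a second peak of 2060, 2420 and 2681 bp there, with folds between 1.80 and 2.52 and summits inside the stretch. The last 2 lay on V from 1268805 to 1270325, with 1521 bp that began 1117 bp beyond the N2 peaks, and on III from 5978342 to 5979840, with 1499 bp.

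The stretches with a summit of all 3 glp-4(bn2) samples were ranked by the lowest fold among the peaks of those summits. The first on X, from 970745 to 971421, was a peak of its own. In each glp-4(bn2) sample a peak of 868, 677 and 791 bp lay over it, with folds of 2.25, 2.31 and 2.17 and summits at 971081, 971133 and 971095. The nearest N2 peak began 767 bp away. The peak of replicate 1 joined it to larger neighbouring peaks, which had folds of 4.32, 5.43 and 3.82 in glp-4(bn2) and of 2.45, 2.81 and 2.04 in N2. The scaling of the lists to each other is not given, so the sizes of folds from different lists cannot be compared directly. The next on X were from 15710437 to 15711128, with folds of 2.02, 2.16 and 2.13 beside a single N2 peak of 344 bp in replicate 1, and from 10993560 to 10994992, with 1.92, 1.85 and 1.94 beside a single N2 peak of 410 bp in replicate 3. On the autosomes the first was on II from 7619440 to 7620439, with folds of 2.08, 2.20 and 2.31 and a single N2 peak of 340 bp in replicate 3, fold 1.57. The next was on V from 5059792 to 5061101, with 2.16, 1.93 and 1.96, followed by the stretch on V at 8793610 described above.

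**Figure D5:**
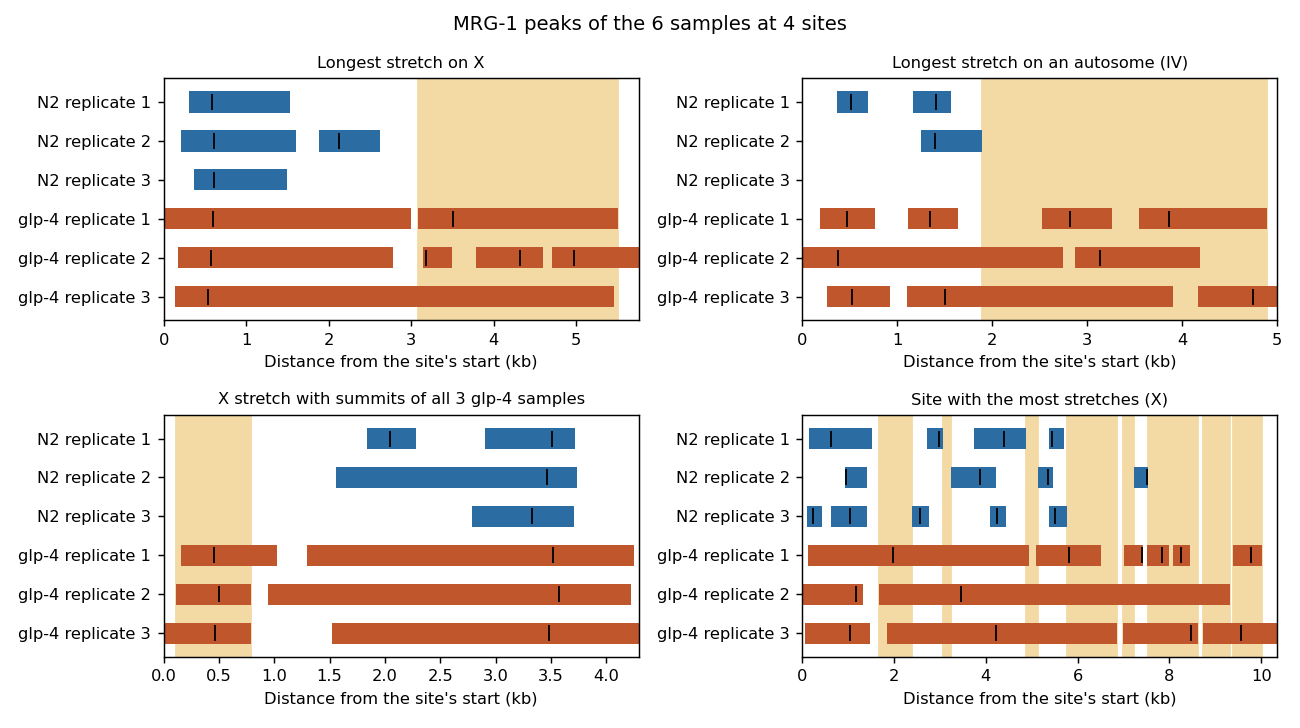
Peaks of the 6 samples (bars, N2 blue and glp-4(bn2) orange, summits as black ticks) along 4 sites, by distance from the site's start (kb), with glp-4-only stretches shaded. The panels show the longest stretch on X (2421 bp), the longest on an autosome (2998 bp), the X stretch with summits of all 3 glp-4(bn2) samples at folds of 2.17 to 2.31, and the X site with 8 stretches.

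The site with the most stretches lay on X from 11522674 to 11533024, 10351 bp wide, and held 8 of them, 5 in gaps and 3 at an edge. Their lengths were 720, 164, 265, 1105, 247, 1087, 597 and 639 bp from left to right. N2 replicates 1, 2 and 3 had 4, 4 and 5 peaks in it, which covered 3193, 2113 and 2210 bp. The glp-4(bn2) replicates covered 8152, 8994 and 9710 bp, with single peaks of 4815, 7671 and 5021 bp among them. The N2 peaks were between 316 and 1369 bp wide and lay partly at different places in each replicate, and the stretches are the spaces that none of them reached. The last 2 stretches had no base covered by all 3 glp-4(bn2) samples.

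The stretches were spread along the whole of X. There were 24.9 stretches per Mb of the span between the first and last site on X, and between 6.22 and 7.87 on the autosomes. Of 3 equal parts of this span, the first held 140, the middle one 165 and the last 135 stretches of X. None of the 18 windows of 1 Mb on X was without a stretch, and the fullest, which starts at 14 Mb, held 45. Chromosomes III and V also had no window without a stretch, while II had 1 of 16 and IV 2 of 18. The middle part of X held 37.5% of its stretches and 34.1% of its candidate sites. On chromosomes III, IV and V the middle part held 46.6%, 48.1% and 46.9% of the stretches against 29.6%, 32.0% and 36.1% of the candidate sites. On II both shares were 30.8%. The median distance from a site with a stretch to the nearest other such site was 9820 bp on X and 28739 bp on IV, and on the other chromosomes it was between 55271.5 and 69142 bp. On X 102 of the 263 sites had another within 5 kb, and on IV 33 of 90.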

How the data were processed

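MRG-1 ChIP-seq of 6 samples was analysed from 1 peak list per sample. The authors aligned paired-end reads of 75 bp to ce10 and ran MACS2 on each replicate by itself (q-value threshold 0.05, no model, extension to 300 bp). The submitters' processing notes name Bowtie2 2.3.2, MACS2 2.1.0, bedtools 2.25.0 and bcl2fastq 2.18.0.12. The control used in peak calling is not given in the sources used here. Each deposited peak has a fold enrichment (a ratio over background), the −log10 of its p-value and q-value, a score derived from the q-value, and a summit position. The highest q-value of a list was between 0.0373 and 0.0498, and no deposited peak was narrower than 300 bp.

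Sites, stretches and candidate sites were computed from the positions of all deposited peaks, 1-based. For sites, folds were compared within a list, by percentile, with the strongest peak of a sample standing for a site. For named regions the folds of each list are printed as deposited, and the ranking by lowest fold used them across the 3 glp-4(bn2) lists without scaling. Values per sample are given as mean and SD. Exact permutation tests over the 20 assignments of 3 and 3 samples were planned for 4 of them, and their p-values are not reported, because the runs of a sample are defined against all samples of the other strain and the labels are then not exchangeable. Shares have 95% Wilson intervals. The regions named were the 5 longest on X and on autosomes with at least 150 bp in all 3 glp-4(bn2) samples, the 3 on X and on autosomes with summits of all 3 samples whose lowest fold was highest, the site with most stretches, and the stretches next to the length minimum. The members and rules were chosen with earlier results of these data known. The alternatives were stricter q-values, equal numbers of top peaks, other length minimums, other numbers of samples, sites joined at an overlap of 150 bp, widened N2 peaks, a replicate block, and each sample left out in turn. The rules were tested on simulated data. Inputs were not analysed. Sequences and gene names were left out because no genome or annotation of ce10 was used here. Scripts ran under Python 3.11.15 with scipy 1.17.1, pandas 2.3.3 and numpy 2.4.6.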

Additional observations from a re-analysis of the deposited data

How the results depend on the processing

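Of 117 values recomputed with all samples kept, 77 stayed within the limits set for a change and 40 moved beyond them. The limits were unlike. A difference between the strains counted as unchanged if it kept its direction, as all did, whatever its size. Held-out coverage counted as unchanged if it moved by no more than its SD of 14.7 points. All 40 that moved were counts, shares, lengths or widths of the stretches and their sites, for which the limits were narrower and a sign cannot change. The 77 include the differences with the replicate number as a block, which could not change. The number of glp-4-only stretches was 2235 with no minimum length and 466 with 300 bp, 533 with all 3 glp-4(bn2) samples required and 1465 with 1, 558 with all 3 N2 samples in the site, and 442 with N2 peaks widened by 150 bp. Their X share was 38.4% with no minimum length, 39.2% with 1 glp-4(bn2) sample and 53.2% with all 3 N2 samples. Their edge share was 80.7% with no minimum length, 80.0% with 300 bp, 79.9% with 1 glp-4(bn2) sample, 72.1% with 2 and 68.8% with all 3 N2 samples in the site, and 87.3% with widened N2 peaks. Leaving out each sample in turn gave 544 to 1166 stretches, X shares of 38.3% to 51.6% and edge shares of 72.5% to 78.9%. The difference in outer-edge share between the strains ranged from -4.44 to 11.2 percentage points, and its negative value came without N2 replicate 2. The difference in X share kept its direction, at 41.2 to 49.1 points with a sample left out and 44.9 to 50.7 otherwise, and that in held-out coverage at 58.1 to 65.3 points. With no minimum length the strains differed by -12.0 bp in median length, 3.61 points in edge share and -883 bp in site width. The held-out coverage was 58.1 points higher in glp-4(bn2) with 2 N2 samples required in the site. It was not recomputed with a sample left out, nor with all 3 or 1 of the glp-4(bn2) samples or all 3 N2 samples required. The cause of these changes was not tested.

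Whether the replicate numbers pair samples is not settled here. The deviations of same-numbered samples correlated at -0.05, 0.27 and 0.20, and those of other pairs at -0.27 to 0.20. N2 replicates 2 and 3 correlated best with the glp-4(bn2) sample of the same number, and N2 replicate 1 with glp-4(bn2) replicate 3. With the replicate number as a block the differences are the same by construction, since a block leaves the difference of means unchanged. They stay at 47.8 points for the X share, 4.39 points for the edge share, -50.3 bp for the length and -1971 bp for the site width. This is no check of those values, and no p-value is given for them. Unknown read depth limits every stretch, since a base without a peak may carry signal below the threshold.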
